A study of Homo sapiens with 6 samples.

Results

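The genes of pyruvate kinase and the splicing factors that choose between the forms of its PKM product were examined in HK-2 cells, an immortalised human line derived from the epithelium of the renal proximal tubule. The 6 genes were PKM, PKLR, PTBP1, HNRNPA1, HNRNPA2B1, and SRSF3, and they were found by symbol among the 29483 genes of the FPKM table, where each matched 1 row. FPKM is the number of reads of a gene divided by its length and by the reads of its library. Cells of both groups were kept in HG medium with 25 mM glucose for 7 days and then, still in HG, for 1 more day. During that day the case group (3 replicates) received 10 μM TEPP-46, an activator of the PKM2 enzyme, and the control group (3 replicates) did not. High glucose was thus common to all 6 libraries, and the comparison of case with control addresses only the addition of TEPP-46. The replicates were treated separately, a vehicle for the control group is not given in the sources used here, and all cells came from this 1 line.

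Pyruvate kinase carries out the last step of glycolysis, in which phosphoenolpyruvate and ADP give pyruvate and ATP. PKM encodes the M1 and M2 forms, which differ by the inclusion of 1 of a pair of mutually exclusive exons, and PKLR encodes the liver and red cell forms. M2 is the form of most proliferating cells and the target of TEPP-46, which holds it as an active tetramer. PTBP1, hnRNP A1, and hnRNP A2/B1 are RNA-binding proteins known to repress the exon of the M1 form, and SRSF3 is an SR protein known to favour the exon of the M2 form. In the adult kidney, the proximal tubule uses PKLR, and cultured cells in general rely on PKM.

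The alternative exons are shown because the splicing factors act on them and because a value per gene cannot tell them apart. Exon 9 (M1 form) lies at chr15:72203022-72203188 and exon 10 (M2 form) at chr15:72202454-72202620 on the minus strand of GRCh38, with 401 intronic bases between them. Both are coding exons of 167 bases, and 105 of the 167 positions (62.9%) carry the same base when the exons are set side by side without gaps. Each sequence below is the exon with 60 intronic bases on either side, read from the genome on the transcribed strand, from chr15:72202962-72203248 and chr15:72202394-72202680. Capitals mark 2 groups of letters searched on that strand only, TCTT, which is among the pyrimidine motifs bound by PTB, and TAGG, the core of the motif bound by hnRNP A1 and hnRNP A2/B1. The matches of the 2 motifs did not overlap.
PKM exon 9: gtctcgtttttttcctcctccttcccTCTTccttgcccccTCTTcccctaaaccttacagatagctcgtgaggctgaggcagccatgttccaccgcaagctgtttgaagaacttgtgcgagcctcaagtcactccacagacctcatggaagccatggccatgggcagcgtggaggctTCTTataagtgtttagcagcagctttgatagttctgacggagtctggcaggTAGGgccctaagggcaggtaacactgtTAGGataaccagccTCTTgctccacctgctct
PKM exon 10: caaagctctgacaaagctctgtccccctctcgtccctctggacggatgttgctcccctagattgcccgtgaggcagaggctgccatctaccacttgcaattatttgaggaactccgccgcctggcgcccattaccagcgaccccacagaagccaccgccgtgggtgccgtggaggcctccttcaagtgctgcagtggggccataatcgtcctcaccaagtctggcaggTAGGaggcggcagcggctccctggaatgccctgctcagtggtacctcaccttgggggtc

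The exon 9 window held TCTT at 4 places, of which 2 lay in the intron before the exon, 1 in the exon, and 1 in the intron after it, while the exon 10 window held none. TAGG was found at 2 places after exon 9 and at 1 place after exon 10, each time starting within the flank that follows the exon. CTCTCT, a longer pyrimidine motif of PTB searched in the same way, occurred in neither window. Among the 704 internal exons of the same length in canonical protein-coding transcripts, 78% of such windows held TCTT, 42.5% held TAGG, and 12.2% held CTCTCT. These matches describe the letters only. The FPKM values below sum the reads of all PKM transcripts, so the M1 and M2 shares were not measured.

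The 6 libraries rested on 18634891, 17924033, and 17378710 reads on genes in control replicates 1, 2, and 3, and on 16711934, 16047243, and 15363254 reads in case replicates 1, 2, and 3, as recovered from the steps of the FPKM values. Every case library was thus shallower than every control library. On the first principal component of the 13599 genes tested, which held 37.2% of the variance, the control libraries lay at -22.9, -27.8, and -23.7, and the case libraries at 30.4, 9.52, and 34.4. The group difference on this first component gave p = 0.1 by a two-sided exact permutation test, which is the smallest p that 3 libraries against 3 allow. Case replicate 2 was the case library nearest to the control group on it. On the second component it was case replicate 1 that stood apart, at 36.9, with the other case libraries at -27.1 and -19.4. The median difference between libraries was 0.18 on the log2 scale for case replicates 2 and 3 and 0.28 and 0.22 for case replicate 1 against these. Replicates were closer to each other in the control group, where the median SD over genes was 0.09 on the log2 scale, than in the case group, where it was 0.19.

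For tests, each library was scaled by its median-of-ratios factor, 0.1 was added to the scaled FPKM, and limma was fitted on the log2 scale to genes whose mean FPKM reached 0.5. Adjusted p values are Benjamini-Hochberg values over all 13599 tested genes, and DE genes are those with an adjusted p of at most 0.05. Log2 fold changes are case minus control on the log2(scaled FPKM + 0.1) scale. Of the 6 genes, 5 passed the filter on low values and PKLR did not. SRSF3 was upregulated, HNRNPA2B1 was downregulated, and PKM, PTBP1, and HNRNPA1 were not DE genes. These 2 of 5 compare with 13.2% of all tested genes that were DE genes, where 7.77% were upregulated and 5.45% downregulated. The values of the groups did not overlap for HNRNPA1, HNRNPA2B1, and SRSF3, which is 3 of 5 against 39.7% of all tested genes. When voom was applied to the whole reads, 20.7% of the tested genes were DE genes, and the same 2 of the 5 were among them.

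**Figure D1:**
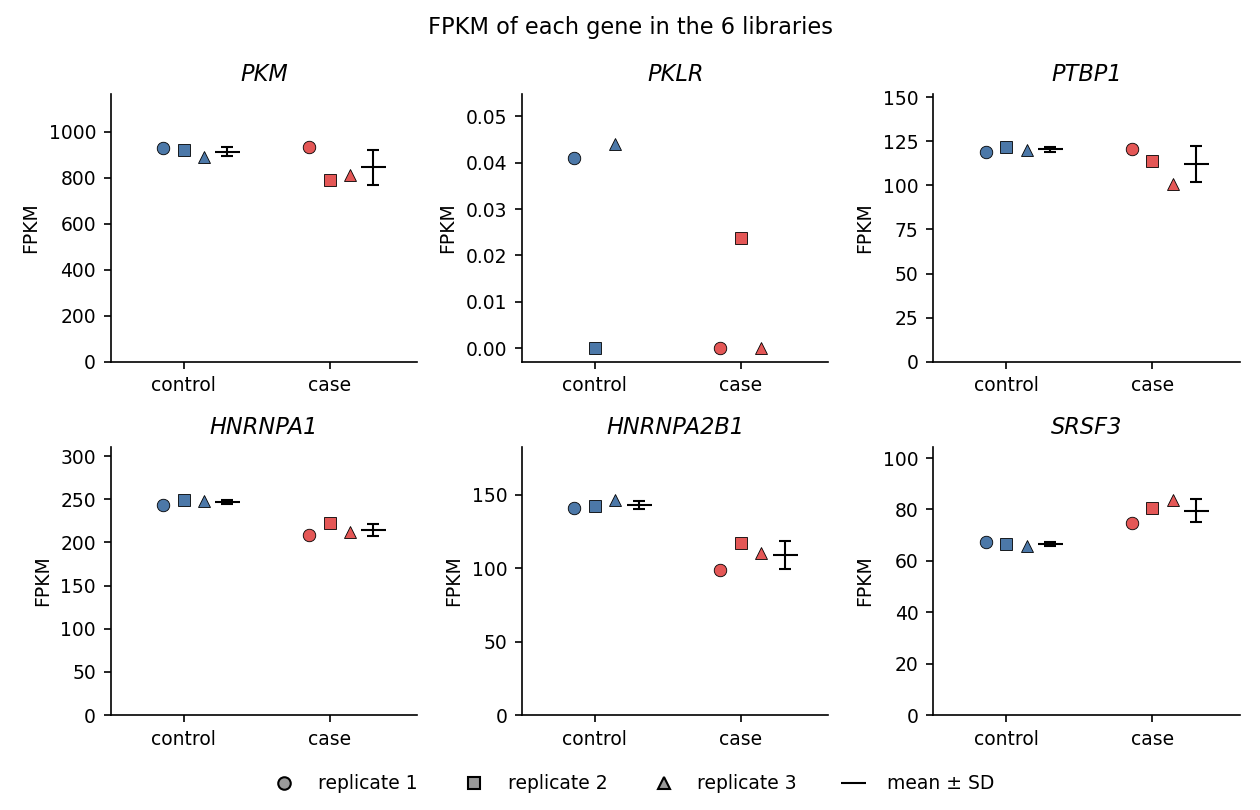
FPKM of the 6 genes in each library, with control replicates in blue and case replicates in red. Marker shapes give the replicate number, and the bars beside the points give the mean and SD of 3 replicates except for PKLR, which had at most 2 reads per library. The SRSF3 points sit at 65.7 to 67.5 FPKM (control) and 74.8 to 83.5 FPKM (case), and the HNRNPA2B1 points at 141.0 to 146.2 FPKM (control) and 98.7 to 117.3 FPKM (case).

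PKM (ENSG00000067225), on the minus strand of chromosome 15 from 72199029 to 72231819, was the most abundant of the 6 genes. Its FPKM was 929.5, 922.5, and 890.7 in control replicates 1, 2, and 3, and 933.8, 792.7, and 811.1 in case replicates 1, 2, and 3. Case replicate 1 was the highest of all libraries and the other 2 case replicates were the lowest, so the groups overlapped. Between 106803 and 148465 reads per library stood behind these values, and PKM ranked between 32 and 41 by FPKM among all genes of a library. After scaling, PKM lay 0.19 above the control mean on the log2 scale in case replicate 1 and 0.17 and 0.09 below it in case replicates 2 and 3, whereas the control replicates lay between -0.043 and 0.031 from their mean. The fold was 0.984 (95% confidence interval 0.828 to 1.17; log2 fold change -0.02, SE 0.11, adjusted p = 0.898 by limma). With this scaling, a change of PKM inside this interval could not be told from no change with these replicates. The sign depended on single libraries, since the log2 fold change was 0.05 without case replicate 2 (adjusted p = 0.725 by limma) and 0.01 without case replicate 3 (adjusted p = 0.971 by limma). The call depended on the scaling. PKM was downregulated with TPM (log2 fold change -0.24, adjusted p = 0.0420 by limma) and with quantile normalization (-0.40, adjusted p = 0.0156 by limma). With FPKM unscaled it was not a DE gene (-0.12, adjusted p = 0.330 by limma).

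PKLR (ENSG00000143627), on the minus strand of chromosome 1 from 155289293 to 155301438, was at the limit of detection. Control replicates 1, 2, and 3 held 2, 0, and 2 reads of PKLR, and case replicates 1, 2, and 3 held 0, 1, and 0 reads. In FPKM these are 0.041, 0, and 0.044 in the control group and 0, 0.0238, and 0 in the case group. A count of 0 allows up to 3 reads, which for PKLR is between 0.0615 FPKM in control replicate 1 and 0.0746 FPKM in case replicate 3, counting error only. All 6 values lie under this limit, so no fold is given and no difference between the groups was detectable at this depth. Part of these few reads cannot be assigned with certainty, because HCN3 on the opposite strand shares 556 exonic bases with PKLR (17.6% of its annotated exon bases) and the strandedness of the libraries is not given in the sources used here.

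Among the repressors of exon 9, PTBP1 (ENSG00000011304, plus strand of chromosome 19, 797075 to 812327) encodes polypyrimidine tract binding protein 1. Its FPKM was 119.1, 121.6, and 120.2 in control replicates 1, 2, and 3, and 120.7, 114.0, and 100.8 in case replicates 1, 2, and 3. Case replicate 3 was the lowest library and case replicate 1 lay within the control range. The fold of PTBP1 was 0.988 (95% confidence interval 0.848 to 1.15; log2 fold change -0.02, SE 0.10, adjusted p = 0.919 by limma). Without case replicate 3 the sign of its log2 fold change turned to 0.06 (adjusted p = 0.701 by limma).

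HNRNPA1 (ENSG00000135486, plus strand of chromosome 12, 54280193 to 54287088) encodes hnRNP A1, which binds TAGG-like motifs and shuttles between nucleus and cytoplasm. Its FPKM was 243.8, 248.7, and 248.3 in control replicates 1, 2, and 3, and 208.2, 222.0, and 212.6 in case replicates 1, 2, and 3. Every case library lay below every control library, also after scaling. The scaled difference was small, with a fold of 0.925 (95% confidence interval 0.828 to 1.03; log2 fold change -0.11, SE 0.07, adjusted p = 0.290 by limma), so HNRNPA1 was not a DE gene. Its size varied little with single libraries, between -0.12 and -0.10 on the log2 scale when each replicate was left out in turn. It varied more with the scaling. HNRNPA1 was downregulated with TPM (log2 fold change -0.33, adjusted p = 0.0157 by limma) and with quantile normalization (-0.34, adjusted p = 0.0231 by limma).

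HNRNPA2B1 (ENSG00000122566, minus strand of chromosome 7, 26171151 to 26201529) encodes hnRNP A2 and hnRNP B1 by alternative splicing. Its FPKM was 141.0, 142.6, and 146.2 in control replicates 1, 2, and 3, and 98.7, 117.3, and 110.6 in case replicates 1, 2, and 3. The groups did not overlap, and case replicate 1 was the lowest. Reads numbered between 19162 and 19808 in the control libraries and between 12441 and 14191 in the case libraries. HNRNPA2B1 was downregulated with a fold of 0.808 (95% confidence interval 0.719 to 0.908; log2 fold change -0.31, SE 0.07, adjusted p = 0.0338 by limma). It was also a DE gene by voom on the whole reads (adjusted p = 0.0217). The call was lost without control replicate 1, 2, or 3 (adjusted p = 0.133, 0.148, and 0.137 by limma), without case replicate 3 (adjusted p = 0.0936 by limma), and with the replicate number as a block (adjusted p = 0.0611 by limma), although the log2 fold change stayed between -0.34 and -0.27 whichever replicate was left out. It was also lost with no filter on low values (adjusted p = 0.0738 by limma) and with no intensity trend (adjusted p = 0.0691 by limma).

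SRSF3 (ENSG00000112081, plus strand of chromosome 6, 36594353 to 36605600) encodes the smallest of the classical SR proteins and was the only one of the 6 genes that was upregulated. Its FPKM was 67.5, 66.5, and 65.7 in control replicates 1, 2, and 3, and 74.8, 80.4, and 83.5 in case replicates 1, 2, and 3. Every case library lay above every control library. The reads themselves were 8950, 8483, and 8127 in control replicates 1, 2, and 3 and 8898, 9186, and 9133 in case replicates 1, 2, and 3, so that the raw reads of case replicate 1 were within the control range and its position above it came from the smaller library. The fold of SRSF3 was 1.27 (95% confidence interval 1.14 to 1.43; log2 fold change 0.35, SE 0.07, adjusted p = 0.0229 by limma). The adjusted p was 0.0125 by voom on the whole reads. The call was lost without control replicate 1, 2, or 3 (adjusted p = 0.103, 0.119, and 0.109 by limma) and without case replicate 3 (adjusted p = 0.0766 by limma), while the log2 fold change stayed between 0.32 and 0.37 whichever replicate was left out. It was also lost with other scalings, where the log2 fold change was 0.13 with TPM (adjusted p = 0.199 by limma) and 0.18 with quantile normalization (adjusted p = 0.149 by limma), and with no intensity trend (adjusted p = 0.0538 by limma).

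**Figure D2:**
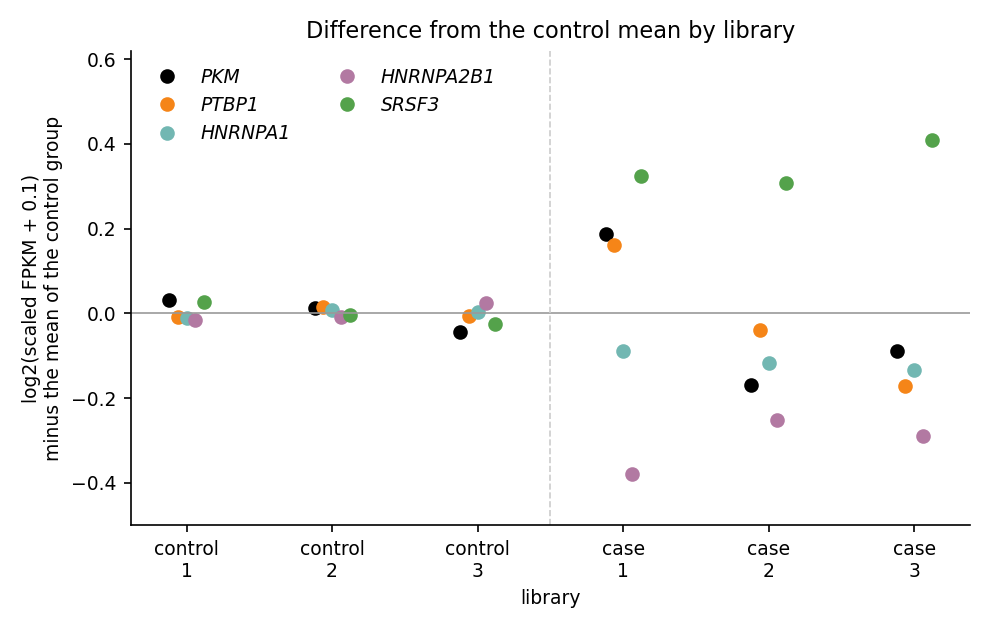
Difference of each library from the mean of the control group for the 5 tested genes, in log2(scaled FPKM + 0.1), with the 6 libraries on the x axis. The control points lie between -0.043 and 0.031, SRSF3 lies between 0.31 and 0.41 in the case libraries, HNRNPA2B1 between -0.38 and -0.25, and PKM and PTBP1 lie above 0 in case replicate 1 and below 0 in case replicates 2 and 3.

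The scaling between libraries moved all 5 genes. The case libraries had larger FPKM sums (310111 to 323755) than the control libraries (289245 to 295418), so that setting these sums equal (TPM) lowered every case value relative to control. The median log2 fold change of all tested genes was 0.01 with median-of-ratios scaling, -0.08 with FPKM unscaled, and -0.20 with TPM. The DE genes were 1056 upregulated and 741 downregulated with median-of-ratios scaling, 662 and 1124 with FPKM unscaled, 381 and 2383 with TPM, and 873 and 895 with quantile normalization. With TPM, PKM fell by 0.24 on the log2 scale (adjusted p = 0.0420 by limma) and HNRNPA1 fell by 0.33 (adjusted p = 0.0157 by limma), whereas SRSF3 was no longer a DE gene (log2 fold change 0.13, adjusted p = 0.199 by limma). With quantile normalization PKM fell by 0.40 (adjusted p = 0.0156 by limma) and HNRNPA1 fell by 0.34 (adjusted p = 0.0231 by limma), and SRSF3 had a log2 fold change of 0.18 (adjusted p = 0.149 by limma). HNRNPA2B1 was downregulated under each of these scalings, with log2 fold changes of -0.40 unscaled, -0.52 with TPM, and -0.54 with quantile normalization. No gene of the 5 changed sign between the scalings.

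TPM and median-of-ratios scaling differ by 1 factor per library, so distances from the median log2 fold change of all tested genes are nearly the same by construction. Relative to that median, PKM lay at -0.04, PTBP1 at -0.03, HNRNPA1 at -0.13, HNRNPA2B1 at -0.32, and SRSF3 at 0.34 with median-of-ratios scaling. Quantile normalization, which also acts on genes by their level, gave other distances, with PKM at -0.40 and SRSF3 at 0.19 relative to the median.

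**Figure D3:**
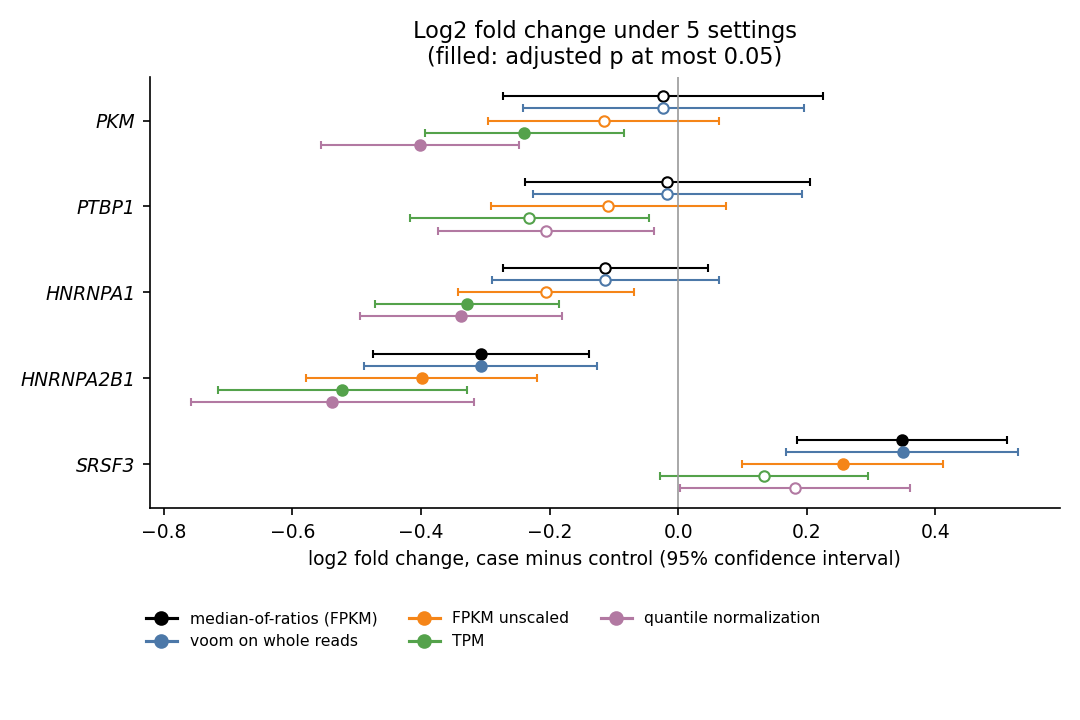
Log2 fold change (x axis, case minus control) of the 5 tested genes with 95% confidence intervals under 5 settings given by colour. Filled points have an adjusted p of at most 0.05. HNRNPA2B1 is filled under all 5 settings with values between -0.54 and -0.31, SRSF3 under 3 of them, and PKM under TPM and quantile normalization only.

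Ratios of FPKM between 2 of the genes within 1 library need no scaling between libraries. They were calculated after the values had been seen and are given without a test. The ratio of SRSF3 to HNRNPA2B1 was 0.479, 0.466, and 0.449 in control replicates 1, 2, and 3, and 0.758, 0.686, and 0.755 in case replicates 1, 2, and 3. All case libraries thus lay well above all control libraries, and the difference was 0.66 on the log2 scale. The ratio of SRSF3 to PKM averaged 0.0728 ± 0.0009 in control and 0.0948 ± 0.0128 in case libraries (SD, n = 3 each), without overlap. In that ratio case replicate 1, at 0.0801, lay nearest to the control group, where 0.0738 was the highest. The ratio of HNRNPA2B1 to PKM averaged 0.157 ± 0.007 in control and 0.130 ± 0.022 in case libraries (SD, n = 3 each), and the highest case value, 0.148, lay just under the lowest control value, 0.152.

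The ratios of PTBP1 and of HNRNPA1 to PKM overlapped between the groups. That of PTBP1 averaged 0.132 ± 0.003 in control and 0.132 ± 0.010 in case libraries, and that of HNRNPA1 averaged 0.270 ± 0.008 and 0.255 ± 0.029 (SD, n = 3 each). The ratio of HNRNPA2B1 to its paralog HNRNPA1 was lower in every case library, at 0.508 ± 0.029 (SD, n = 3) against 0.580 ± 0.008 (SD, n = 3). This ratio was chosen after its values were seen and was not tested. The confidence intervals of the fold changes of the 2 genes overlap, but this does not decide whether the 2 genes changed by different amounts.

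**Figure D4:**
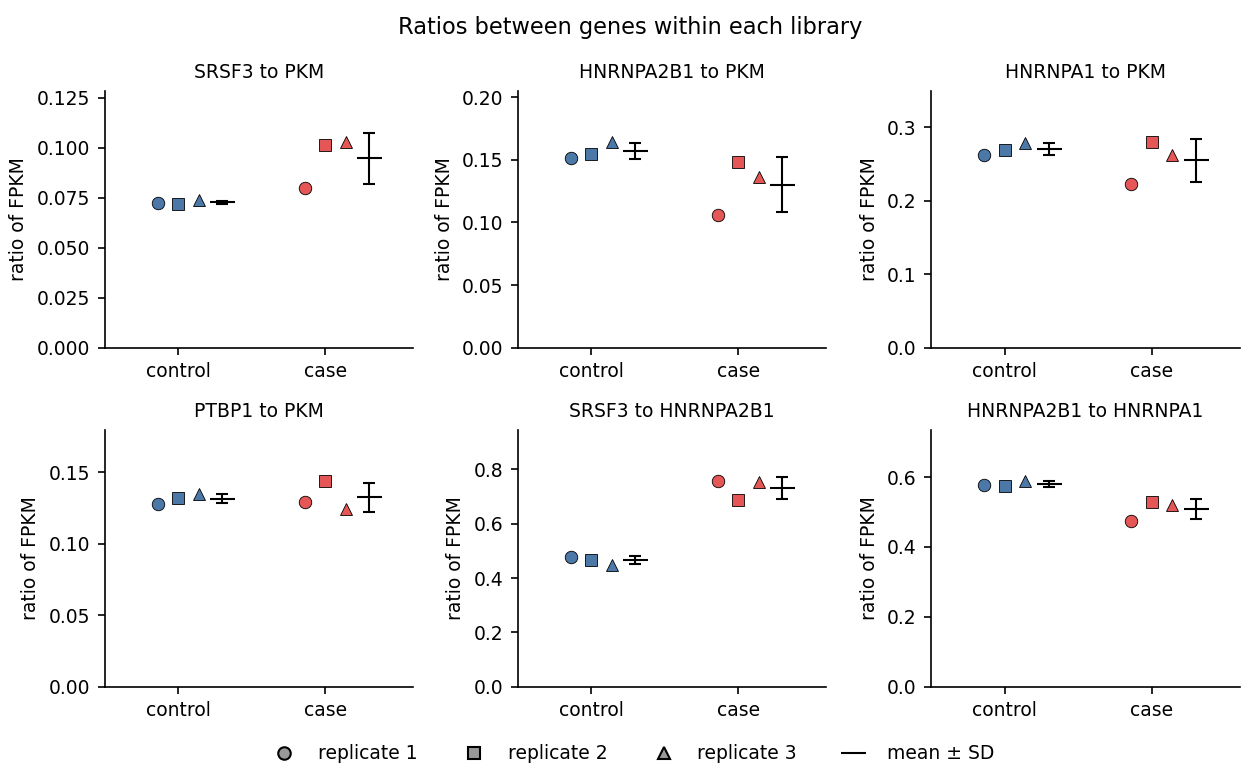
Ratios of FPKM between 2 genes within each library (y axes start at 0), with the mean and SD of 3 replicates beside the points. The ratio of SRSF3 to HNRNPA2B1 is 0.449 to 0.479 in control and 0.686 to 0.758 in case libraries, while PTBP1 to PKM overlaps between the groups.

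By FPKM level, the order in the control group was PKM (914 ± 20.7), HNRNPA1 (247 ± 2.72), HNRNPA2B1 (143 ± 2.69), PTBP1 (120 ± 1.29), SRSF3 (66.6 ± 0.89), and PKLR (SD, n = 3 each), and no 2 neighbours overlapped. In the case group the order was PKM (846 ± 76.7), HNRNPA1 (214 ± 7.09), PTBP1 (112 ± 10.1), HNRNPA2B1 (109 ± 9.39), SRSF3 (79.6 ± 4.42), and PKLR (SD, n = 3 each). PTBP1 and HNRNPA2B1 changed places there by their means, but their values overlapped. Within libraries, the ratio of HNRNPA2B1 to PTBP1 was 0.818, 1.03, and 1.10 in case replicates 1, 2, and 3. By FPKM, PTBP1 was thus the higher gene only in case replicate 1. In the control replicates the ratio lay between 1.17 and 1.22. PKM was 3.70 times as high as the next gene in the control group and 3.95 times in the case group.

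The lengths in these values were recovered together with the reads and were 8571 bases for PKM, 6883 for PTBP1, 5093 for HNRNPA1, 7541 for HNRNPA2B1, 7118 for SRSF3, and 2618 for PKLR. For SRSF3 the length equals the exon bases of all its transcripts in GENCODE version 44, and for PKM it is within 1 base of them, but for HNRNPA2B1 those exons now cover 12613 bases and for HNRNPA1 6697. The canonical transcripts are shorter than the lengths used for PKM (2305 bases), SRSF3 (4228 bases), and the other tested genes, and longer for PKLR (3047 bases). Per canonical length, an alternative added with the values in view, each group kept the order it had by FPKM, including the change of places between PTBP1 and HNRNPA2B1, and PKM was 10.1 times as high as HNRNPA1 in the control group. Comparisons between genes thus depend on the length chosen, and those between libraries do not.

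Reads shared with similar or overlapping genes limit some of these values. HNRNPA1 has 22 processed copies in the table, of which 20 were above 0, and together they held between 2.05% and 2.39% of the reads of HNRNPA1 in a library. None of the 4 copies tested was a DE gene, and the most abundant, HNRNPA1P10, had an FPKM of 8.71 on average and a log2 fold change of -0.29 (SE 0.15, adjusted p = 0.211 by limma). The 3 copies of PKM and the copy of SRSF3 held at most 0.00141% and 0.0738% of the reads of their parents. These shares cover only reads that were assigned to the copies. Reads that match a copy and its parent equally well were not measured. NFE2L3 and CBX3, on the strand opposite to HNRNPA2B1, share 1207 and 368 exonic bases with it, which is 9.57% and 2.92% of its annotated exon bases. NFE2L3 was itself a DE gene in the opposite direction to HNRNPA2B1 (log2 fold change 0.32, SE 0.08, adjusted p = 0.0427 by limma), and CBX3 was not a DE gene (log2 fold change 0.10, SE 0.09, adjusted p = 0.484 by limma). NFE2L3 and CBX3 had mean FPKM values of 15.9 and 55.8, and how reads in the shared bases were assigned is not given in the sources used here. The annotation lists 49 transcripts of HNRNPA2B1, of which 35 are marked for nonsense-mediated decay, and 8 of SRSF3, of which 2 are so marked. The gene values sum these with the coding transcripts.

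The other genes of the pathway are given as counts to be read against the 13.2% of all tested genes that were DE genes. Of 20 glycolytic enzyme genes other than pyruvate kinase, 15 were tested, 1 was downregulated, and none was upregulated, beside 7.77% upregulated and 5.45% downregulated among all tested genes. Their median log2 fold change was 0.08 beside 0.01 over all tested genes. The downregulated gene was PFKM, the muscle type of phosphofructokinase, at 15.6 ± 1.06 FPKM in the control group and 11.6 ± 0.738 FPKM in the case group (SD, n = 3 each; log2 fold change -0.33, SE 0.09, adjusted p = 0.0422 by limma). GAPDH, ENO1, and ALDOA, which reach levels like that of PKM, had log2 fold changes of 0.26, 0.04, and 0.31 and adjusted p values of 0.123, 0.841, and 0.106 by limma. With FPKM unscaled, TPM, and quantile normalization, 2, 4, and 3 genes of this list were downregulated and none was upregulated. With the replicate block none was a DE gene.

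Of 21 genes for enzymes and carriers that use pyruvate, 18 were tested, 3 were upregulated, and none was downregulated (median log2 fold change 0.02), beside 7.77% and 5.45% of all tested genes. These counts depended on the scaling. With FPKM unscaled 3 were upregulated and 1 was downregulated, and with quantile normalization 1 was upregulated and none downregulated. With TPM, which lowered every case value relative to control, none was upregulated and 4 were downregulated. Counts under a shift of all genes do not show that any gene changed direction. LDHA and LDHB encode the subunits of lactate dehydrogenase, which converts pyruvate to lactate and back. LDHA was at 168.7, 174.1, and 166.2 FPKM in control replicates 1, 2, and 3, and at 192.6, 208.1, and 209.9 FPKM in case replicates 1, 2, and 3 (log2 fold change 0.35, SE 0.07, adjusted p = 0.0218 by limma). LDHB was upregulated by 0.42 on the log2 scale (SE 0.09, adjusted p = 0.0256 by limma), from 289 ± 15.1 to 363 ± 33.0 FPKM (SD, n = 3 each). GPT2, the mitochondrial alanine aminotransferase that exchanges pyruvate with alanine, rose from 19.4 ± 0.184 to 25.3 ± 2.02 FPKM (SD, n = 3 each; log2 fold change 0.47, SE 0.09, adjusted p = 0.0221 by limma). By limma with the main settings, the genes of pyruvate dehydrogenase, its kinases and phosphatases, pyruvate carboxylase, and the pyruvate carriers were not DE genes where tested. Nearest to the threshold were PDP2, a phosphatase of pyruvate dehydrogenase (log2 fold change -0.41, adjusted p = 0.0502 by limma), and MPC2, a subunit of the mitochondrial pyruvate carrier (log2 fold change 0.41, adjusted p = 0.0571 by limma). PDP2 and MPC2 were DE genes by voom on the whole reads (adjusted p = 0.0217 and 0.033).

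Of 32 other hnRNP, PTB, and SR genes, 31 were tested, of which 1 was upregulated and 2 were downregulated (median log2 fold change -0.03), beside 13.2% DE genes among all tested genes. No gene of this list was upregulated with FPKM unscaled, TPM, or quantile normalization, where 6, 11, and 6 were downregulated. SRSF1, the founding SR protein, had a log2 fold change of 0.28 (SE 0.08, adjusted p = 0.0485 by limma). Its call was also lost with the replicate block, robust estimation, no filter on low values, and no intensity trend, where no gene of the list was upregulated. HNRNPA3, another hnRNP of the A/B family, fell by 0.41 on the log2 scale (SE 0.08, adjusted p = 0.0208 by limma), from 53.5 ± 1.86 to 37.9 ± 3.79 FPKM (SD, n = 3 each). PTBP3, a paralog of PTBP1, fell by 0.53 (SE 0.14, adjusted p = 0.0461 by limma). PTBP2, the neuronal paralog, averaged 0.546 ± 0.056 FPKM in control and 0.427 ± 0.114 FPKM in case libraries (SD, n = 3 each) and was not tested.

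Among 29 partners, modifiers, and upstream factors of PKM, 26 were tested, of which 1 was upregulated and 2 were downregulated, with a median log2 fold change of -0.17, beside 13.2% DE genes among all tested genes. With TPM 1 was upregulated and 7 were downregulated. MYC, a transcription factor known to raise PTBP1, HNRNPA1, and HNRNPA2B1 in proliferating cells, was upregulated by 0.47 on the log2 scale (SE 0.10, adjusted p = 0.0250 by limma), from 51.6 ± 2.35 to 67.1 ± 5.03 FPKM (SD, n = 3 each). STAT3, a transcription factor of cytokine signalling, fell by 0.60 (SE 0.10, adjusted p = 0.0157 by limma), from 40.5 ± 1.56 to 25.2 ± 3.45 FPKM (SD, n = 3 each). OGT, which attaches N-acetylglucosamine to proteins, fell by 0.45 (SE 0.09, adjusted p = 0.0202 by limma). HIF1A, a known partner of PKM2, had a log2 fold change of -0.32 and was not a DE gene by limma (adjusted p = 0.0857). EP300, an acetyltransferase known to modify PKM2, had one of -0.64 and was not a DE gene by limma either (adjusted p = 0.0699). By voom on the whole reads HIF1A and EP300 were DE genes (adjusted p = 0.0454 and 0.0194). The counts of all 4 groups of genes changed with the processing and are given again with the alternatives.

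**Figure D5:**
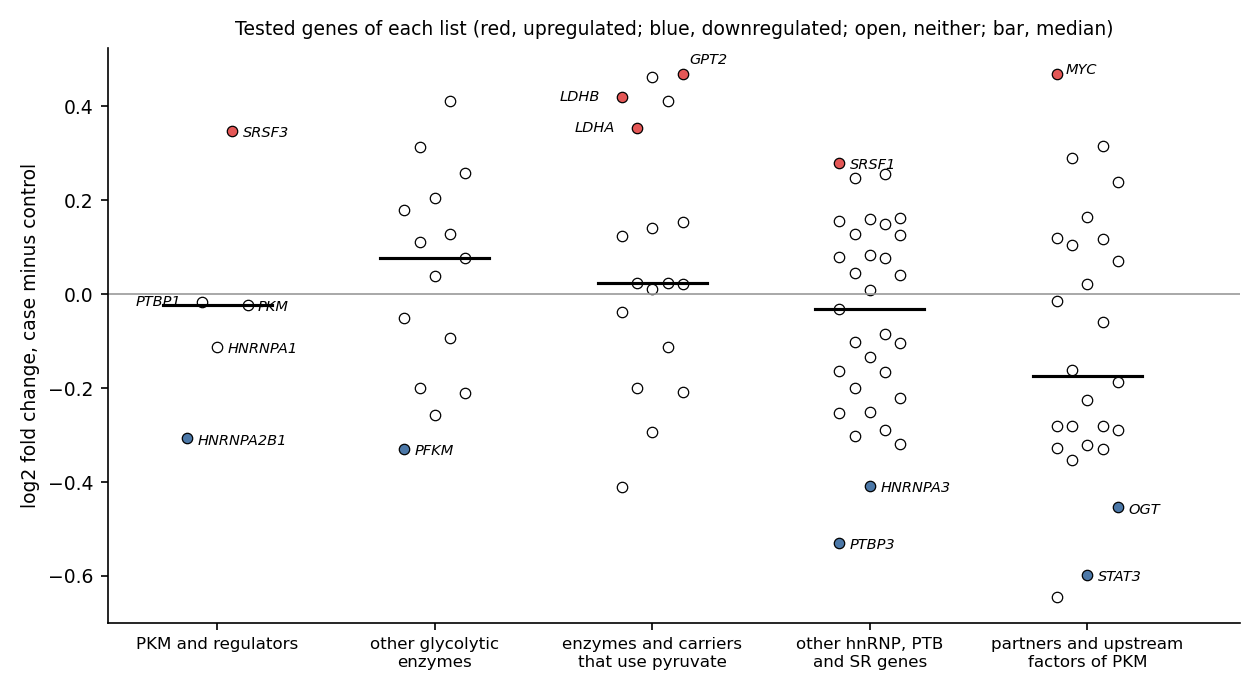
Log2 fold change (y axis, case minus control) of each tested gene in PKM and its regulators and in 4 groups of related genes, with upregulated genes in red, downregulated genes in blue, other genes open, and the median of each group as a bar. The DE genes are named, and HNRNPA3 and PTBP3 lie at -0.41 and -0.53, below HNRNPA2B1 at -0.31.

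Proximal tubule markers were low, keratins of epithelial cells were abundant, and some markers moved with the groups. Of 14 proximal tubule markers, 11 were matched, and 10 of these stayed under 0.5 FPKM in every library, including LRP2, CUBN, AQP1, and SLC34A1. The summed FPKM of this list was 3.29, 3.44, and 3.41 in control replicates 1, 2, and 3, and 1.88, 2.36, and 2.03 in case replicates 1, 2, and 3, most of it from SLC4A4 (log2 fold change -0.73, SE 0.15, adjusted p = 0.0218 by limma). The labelled tubular origin therefore rests on few defining markers in these data. The renal epithelial list, with KRT19 as its most abundant gene, summed to 928, 903, and 899 FPKM in the control group and to 905, 723, and 822 FPKM in the case group. Of its 6 tested genes 1, CDH1, was downregulated (log2 fold change -0.63, SE 0.11, adjusted p = 0.0157 by limma), beside 5.45% downregulated and 13.2% DE genes among all tested genes. The mesenchymal list, with VIM as its most abundant gene, summed to 92.2, 97.5, and 98.4 FPKM in the control group and to 151, 120, and 162 FPKM in the case group, where VIM was upregulated (log2 fold change 0.68, SE 0.13, adjusted p = 0.0210 by limma) and FN1 was downregulated (log2 fold change -0.85, SE 0.20, adjusted p = 0.0334 by limma). The part of these shifts in the changes of SRSF3 and HNRNPA2B1 was not tested, and fewer cells of a kind and less RNA per cell cannot be told apart in bulk libraries.

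Markers of cells that use other pyruvate kinase forms were low where matched. For liver, ALB, APOA1, and TTR were matched and summed to at most 0.35 FPKM in a library. The 3 red cell markers were not matched by symbol, so no values are given for them. For skeletal muscle and neurons, where the M1 form is usual, 5 of 6 markers were matched, and they summed to between 0.731 and 1.20 FPKM, with PTBP2 as the most abundant.

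The genes with the most similar profile over the 6 libraries were taken as those with the smallest root mean square difference in centred log2(scaled FPKM + 0.1) values among the 11658 genes whose mean FPKM reached 1. For PKM these were SPINT2 (0.0131), PPP2R1A (0.0136), and MCM5 (0.0209), where the median gene differed from PKM by 0.213. For PTBP1 they were PRPS1 (0.0166), GNA12 (0.020), and ZDHHC3 (0.0231), and for HNRNPA1 they were CAMK2G (0.018), EXOSC10 (0.0217), and NOMO3 (0.022). For HNRNPA2B1 they were TTI1 (0.0234), EID1 (0.0244), and MAPRE2 (0.029), and for SRSF3 they were KATNA1 (0.0141), SNRPF (0.017), and IGBP1 (0.018). Among the 5 genes themselves, PKM and PTBP1 had the most similar profiles, with a difference of 0.0667, and HNRNPA2B1 and SRSF3 the least, with 0.332. With 3 libraries in each group, such likeness describes these libraries only, where the case libraries differed from the control libraries in both depth and treatment.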

How the data were processed

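RNA of 3 control and 3 case replicates was sequenced with paired ends. As deposited by the authors, values are FPKM of 29483 genes in 1 column per library. The authors filtered the reads, aligned them to GRCh38.p13 with HISAT2 2.1.0, counted them per gene with HTSeq 0.6.0, and divided the counts by the length of the gene and the reads of the library. The annotation version, RNA selection, and strandedness are not given in the sources used here. The authors tested counts with DESeq2, whereas the FPKM values were tested here.

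Libraries were scaled by median-of-ratios factors (0.933 to 1.04), 0.1 was added, and log2 values were tested in R 4.3.3 with limma 3.58.1 with an intensity trend and no covariates. Only genes whose mean FPKM over all libraries reached 0.5 entered the fit. FPKM values given per gene are unscaled. Of 27922 genes above 0, whole reads were recovered from the FPKM steps alone for 26160 and with the annotated length for 1760, and they summed to 99.8% of each library total. Reads carry no molecular identifiers, so counting limits cover counting error only. Positions, symbols, and exons are from GENCODE version 44 on GRCh38, which gave a symbol for 29063 genes. The procedure was also run on simulated data, with planted changes larger than those of SRSF3 and HNRNPA2B1 under the main settings. Both groups were given the same spread there. That run therefore does not show how well changes of their size are found in these libraries.

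The genes, lists, and markers were chosen with earlier results of these data known. Named genes are the 6 genes, the 3 largest changes in each direction among the DE genes of each list, the 3 nearest profiles of each tested gene, processed copies, and cell type markers. PTBP2, PDP2, MPC2, GAPDH, ENO1, ALDOA, HIF1A, EP300, and overlapping genes are named for context, after their values were seen. Alternative settings comprised FPKM unscaled, TPM, quantile normalization, pseudocounts of 1 and 0.01, no filter or a minimum mean FPKM of 1, limma without the intensity trend or with robust estimation, voom on whole reads, a replicate block, and each replicate left out in turn.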

Additional observations from a re-analysis of the deposited data

How the results depend on the processing

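Each of the 5 tested genes was refitted under 17 alternatives. The log2 fold change of PTBP1 stayed outside the DE genes in all of them. PKM became a DE gene with TPM (-0.24) and quantile normalization (-0.40), and HNRNPA1 did so with TPM (-0.33) and quantile normalization (-0.34). HNRNPA2B1 kept its value of -0.31 but lost its call with no filter on low values (adjusted p = 0.0738 by limma), no intensity trend (adjusted p = 0.0691 by limma), and the replicate block (adjusted p = 0.0611 by limma). SRSF3 lost its call with TPM (0.13), quantile normalization (0.18), and no intensity trend (0.35, adjusted p = 0.0538 by limma). Leaving out 1 replicate gave -0.13 to 0.049 for PKM, the upper end at 0.049 without case replicate 2 and a value of 0.01 without case replicate 3, and -0.10 to 0.06 for PTBP1, with 0.061 without case replicate 3. The range was -0.12 to -0.10 for HNRNPA1, -0.34 to -0.27 for HNRNPA2B1, and 0.32 to 0.37 for SRSF3. PKLR entered the fit with no filter on low values, where it was not a DE gene (adjusted p = 0.588 by limma), and its fold is not given because all its values lie under the limit that a count of 0 allows.

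The 1797 DE genes became 524 with no filter, 880 with no intensity trend, 2764 with TPM, and 2814 with voom, and 68 to 3538 when 1 replicate was left out, with 116, 68, and 80 for control replicates 1, 2, and 3 and 2274, 3538, and 184 for case replicates 1, 2, and 3. The 2 DE genes among the 6 became 1 with no filter, 0 with no intensity trend, 1 with the replicate block, 3 with TPM and 3 with quantile normalization (all downregulated), and 0 to 2 with a replicate left out. With no filter, no intensity trend, TPM, and quantile normalization, the glycolytic enzymes held 0, 0, 4, and 3 DE genes, and the hnRNP, PTB, and SR genes 1, 1, 11, and 6. FPKM unscaled gave 2 and 6 for these lists, and the replicate block gave 0 glycolytic enzymes. The enzymes and carriers that use pyruvate held 0 with no filter, 5 with a mean FPKM of at least 1, 1 with quantile normalization, 0 with no intensity trend, and 5 with voom. With TPM, which lowered every case value relative to control, they held 4, all downregulated. These counts do not show that the 3 genes upregulated before changed direction. The partners of PKM held 8 with TPM, 5 with quantile normalization, and 6 with voom. With a replicate left out, the 4 lists held 0 to 3, 0 to 7, 0 to 7, and 0 to 9. The causes of these differences were not tested.

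The replicate numbers are not known to pair the libraries. Same-numbered libraries of the groups had correlations of 0.06, 0.10, and -0.05 in their deviations from the group means. With the replicate number as a block there were 1698 DE genes, and HNRNPA2B1 was the only one of the 5 genes whose call changed. PKLR had at most 2 reads in a library, and the other 5 genes had at least 8127 reads each. Every case library was shallower than every control library, and the part of depth in the differences was not tested.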
